A study of Homo sapiens with 12 samples.

Results

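The genes described here were the transcripts of the human mitochondrial genome and the copies of mitochondrial genes that lie in the nuclear genome. Members were chosen by gene symbol alone: symbols that start with MT-, symbols of pseudogenes of mitochondrial mRNA or rRNA genes such as MTND2P28, and symbols that start with MTRNR2L. The rule found 50 of the 22564 genes in the authors' table, 26 of them in the mitochondrial genome and 24 in the nuclear genome, and 0 genes of the MTRNR2L family. Total RNA was taken from A549, a cell line established from a human lung carcinoma, transfected for 48 to 72 h at 40 nM with small interfering RNA against YTHDC1 (siYTHDC1, 6 libraries) or with a scrambled control (siSCR, 6 libraries). YTHDC1 binds N6-methyladenosine on RNA in the nucleus, and the study asked how its depletion changes gene expression.

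The values are 1 number per gene: the mean normalized count that the authors computed over all 12 libraries of both groups. No gene therefore has an SD or n of its own here, the sequencing depth per library is unknown, and the levels of siYTHDC1 and siSCR cannot be told apart. No test was made, an order of genes is a description, and whether neighbours in an order differ beyond the spread of libraries was not tested. YTHDC1 itself had a pooled mean of 232, which covers control and depleted cells together and so gives no check of the knockdown. All 5 epithelial markers were listed, from EPCAM at 58.4 to KRT8 at 27600.4. The 4 blood markers, among them PTPRC and HBB, were not listed, and of the endothelial markers CDH5 was listed at 7.19 while PECAM1 and VWF were not. Of the stromal markers COL1A1 was at 194, COL3A1 at 10.8 and DCN was not listed. The lowest mean in the table was 1.52, and how genes came to be left out of it is not given in the sources used here.

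The mitochondrial genome is a small circle of DNA that is transcribed on both strands into long precursors, and most precursors are cut at the tRNAs that lie between the other genes (tRNA punctuation). The heavy strand encodes both rRNAs, most tRNAs and 12 of the 13 mRNAs, while the light strand encodes the mRNA of MT-ND6 and the remaining 8 tRNAs. All 13 mRNAs encode subunits of oxidative phosphorylation, whose other subunits come from the nuclear genome. Pieces of mitochondrial DNA have been inserted into nuclear chromosomes during evolution, and their gene-like stretches are annotated as pseudogenes. Coordinates below are those of GRCh37, where chrM has 16569 bases.

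Mitochondrial RNA in these libraries was almost entirely mRNA of the heavy strand. The 12 heavy-strand mRNAs summed to 267481 mean normalized counts, which was 98.0% of the sum of all listed mitochondrial genes and 2.34% of the sum of the whole table. The light-strand mRNA MT-ND6 made up 1.52% of the mitochondrial sum, the 11 listed tRNAs 0.288% and both rRNAs together 0.193%. The 24 nuclear copies summed to 1259, or 0.461% of the mitochondrial sum. Mitochondrial genes and nuclear copies together held 2.40% of the table.

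Cytochrome c oxidase mRNAs led the heavy strand. MT-CO1 (chrM:5904-7445), the catalytic subunit of complex IV, had a mean normalized count of 107665, the second highest of the table after the nuclear long non-coding RNA MALAT1 at 147536. MT-CO1 alone was 39.4% of the mitochondrial sum. Levels between genes are compared per kilobase, that is, the mean normalized count divided by the gene's length in kilobases. That length is the annotated exons of the gene, merged. On this scale MT-CO1 was at 69822, MT-CO3 (chrM:9207-9990) at 40165 and MT-CO2 (chrM:7586-8269) at 34515.5. MT-CO1 was 1.74 times as high per kilobase as MT-CO3, and these 3 mRNAs of complex IV took the highest places among mitochondrial genes.

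The mRNAs of complexes I, III and V lay below those of complex IV. MT-ND4 (chrM:10760-12137), a proton-pumping subunit of complex I, was at 21280.1 per kilobase. MT-ND1 (chrM:3307-4262), which lies where the peripheral arm meets the membrane arm of complex I, was at 19363. MT-ATP6 (chrM:8527-9207), which forms part of the proton channel of the ATP synthase, was at 16092. Between them and the shorter mRNAs stood MT-ND2 (chrM:4470-5511), another proton-pumping subunit, at 14123, and MT-CYB (chrM:14747-15887), the cytochrome b of complex III, at 13632. The 12 heavy-strand mRNAs had a median of 15108 per kilobase, against 32.2 for all genes with a length in the annotation.

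The lower end of the heavy strand held complex I subunits and MT-ATP8. MT-ND4L (chrM:10470-10766) was at 7592 per kilobase, MT-ND5 (chrM:12337-14148), the longest mitochondrial mRNA gene, at 6369.7 and MT-ND3 (chrM:10059-10404) at 4520.3. MT-ATP8 (chrM:8366-8572), a small membrane subunit of the ATP synthase, was lowest at 1421, which set the spread from lowest to highest at 49.1-fold. Genes that one precursor carries thus differed widely in level per kilobase. The level did not fall steadily along the genome: the highest gene, MT-CO1, lies between MT-ND2 and MT-CO2, and the low MT-ND3 lies between MT-CO3 and MT-ND4L. Of the 13 mRNAs, 12 were among the 50 highest genes of the table per kilobase, and MT-ATP8 held place 152.

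**Figure D1:**
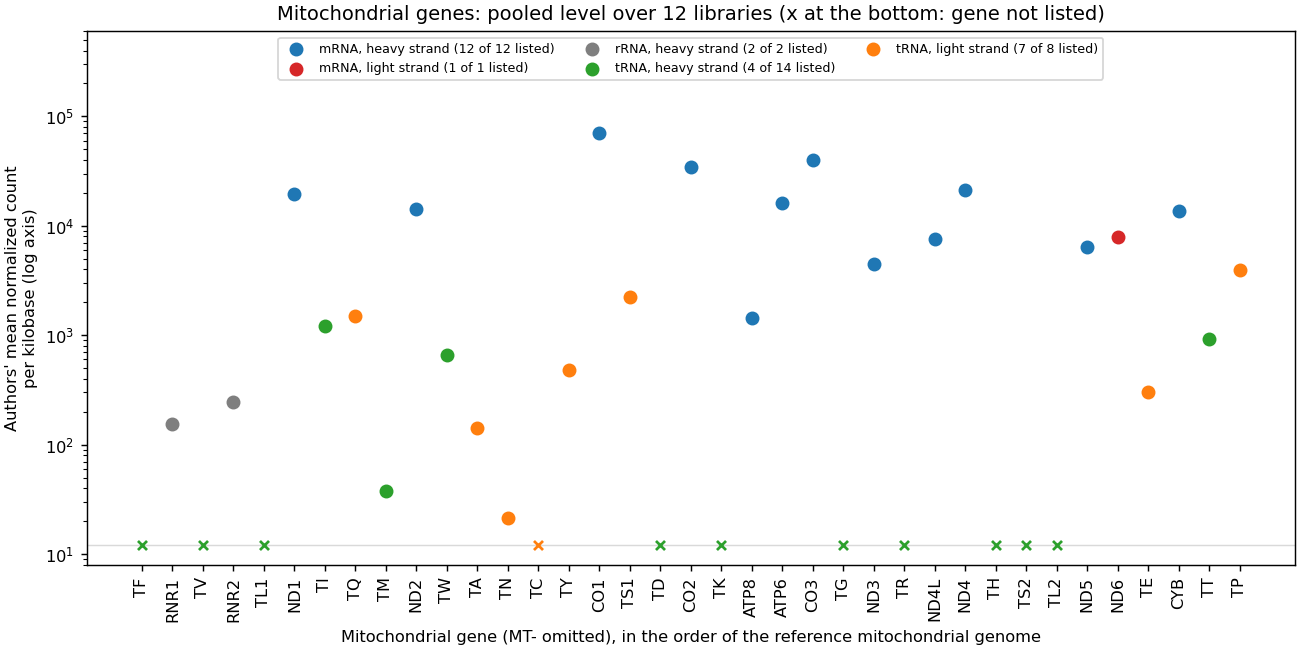
Authors' mean normalized count per kilobase (log axis) of each mitochondrial gene in the order of the reference mitochondrial genome. Each point is 1 gene pooled over 12 libraries, colours give the class and strand, and a cross at the bottom marks a gene that is not listed. MT-CO1 stands highest at 69822, both rRNAs lie at 154 and 244, and 11 tRNAs are not listed.

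The lowest mRNA shares bases with its neighbour. MT-ATP8 and MT-ATP6 sit on a common mRNA and are read in different frames over 46 bases, 22.2% of MT-ATP8, and MT-ND4L and MT-ND4 share 7 bases in the same way. MT-ATP6 and MT-CO3 meet at 1 shared base. The sequences below show the first 2 overlaps, because reads that fall on shared bases can be assigned to either gene or to none. In the first sequence (chrM:8527-8572) the capitals mark the start codon of MT-ATP6 and the stop codon of MT-ATP8, and in the second (chrM:10745-10781) they mark the shared bases.
MT-ATP8 and MT-ATP6 overlap: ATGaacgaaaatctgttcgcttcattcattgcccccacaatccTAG
MT-ND4L and MT-ND4 junction: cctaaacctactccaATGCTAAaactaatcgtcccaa
MT-ATP6 was 11.3 times as high per kilobase as MT-ATP8, and 9.46 times when shared bases were left out of both lengths. MT-ND4 was 2.80 times as high as MT-ND4L, and 2.75 times per unshared kilobase. Within each pair, counts per kilobase were therefore unequal on either length, although 1 mRNA carries both genes. The unshared length does not account for reads that fall only partly on shared bases. The gap is thus one of counts and cannot be read as one of RNA amount. How reads on shared bases were counted was not tested, and the spread of the heavy strand was 15.4-fold over the genes that overlap no other gene.

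MT-ND6, the only mRNA of the light strand, was not rare. It encodes a membrane subunit of complex I and lies at chrM:14149-14673, next to MT-ND5 on the other strand. Its mean normalized count was 4138, or 7881 per kilobase, which was 0.522 of the heavy-strand median. The heavy-strand mRNAs below it per kilobase were MT-ND4L, MT-ND5, MT-ND3 and MT-ATP8. The base content of the strands differs, with 35.6% G in the MT-ND6 mRNA and 6.28% to 16.2% G in the heavy-strand mRNAs. Whether strand was used in the authors' counting is not given in the sources used here, so RNA of the other strand over MT-ND6 cannot be told apart from its mRNA.

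Both rRNAs were listed at levels far below the mRNAs. MT-RNR1 (chrM:648-1601), the RNA of the small mitochondrial ribosomal subunit, had a mean of 147, or 154 per kilobase. MT-RNR2 (chrM:1671-3229), the RNA of the large subunit, had a mean of 380, or 244 per kilobase, 1.58 times MT-RNR1. Per kilobase they were at 0.0102 and 0.0161 of the heavy-strand median, and their summed mean was 0.197% of that of the heavy-strand mRNAs. The library kit removed rRNA, so these values are what was left after that step, and the amount before it was not measured.

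Of the 22 mitochondrial tRNAs, 11 were listed, and the strands differed in how many: 7 of 8 on the light strand and 4 of 14 on the heavy strand. As for MT-ND6, whether strand was used in the authors' counting is not given. RNA of the other strand over a tRNA gene therefore cannot be told apart from the tRNA. The tRNA genes have 59 to 75 bases, shorter than a read, so their counts are given as they stand. MT-TP, the tRNA for proline on the light strand, was highest with a mean of 267. MT-TS1, a serine tRNA next to MT-CO1 on the other strand, followed at 154, and MT-TQ, for glutamine, at 108. These 3 lie on the light strand, and the highest on the heavy strand were MT-TI, for isoleucine, at 84.0 and MT-TT, for threonine, at 60.5. The middle of the list held MT-TW, for tryptophan, at 44.8, MT-TY, for tyrosine, at 31.8 and MT-TE, for glutamate, at 21.0. At the lower end stood MT-TA, for alanine, at 9.76, MT-TM, for methionine, at 2.55 and MT-TN, for asparagine, at 1.57. Against a median mean of 65.8 over all genes, 4 of the 11 were at or above it.

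Listed and unlisted tRNAs also differed in how close their neighbours lie. In 7 tRNAs a gene of the same strand lies under 10 bases away on both sides, and 0 of these were listed. Of the other 15, 11 were listed and MT-TF, MT-TC, MT-TD and MT-TK were not. This grouping was chosen after the values were seen and has no test. All 7 lie on the heavy strand. The 4 listed tRNAs of that strand, MT-TI, MT-TM, MT-TW and MT-TT, are outside the 7, as are MT-TF, MT-TD and MT-TK, which were not listed. No light-strand tRNA has such neighbours on both sides, so closeness cannot be compared there. Whether reads that cross from a tRNA into its neighbour were counted for either was not tested.

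The highest and the lowest listed tRNA are shown whole, with the opposed pair MT-TI and MT-TQ, whose ends cover the same 3 bases on different strands (in capitals). Their positions are chrM:15956-16023 for MT-TP and chrM:5657-5729 for MT-TN, both on the minus strand, chrM:4263-4331 on the plus strand for MT-TI, and chrM:4329-4400 on the minus strand for MT-TQ.
MT-TP: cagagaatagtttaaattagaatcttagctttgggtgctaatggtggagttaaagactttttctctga
MT-TN: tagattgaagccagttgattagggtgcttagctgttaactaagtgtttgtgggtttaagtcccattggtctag
MT-TI: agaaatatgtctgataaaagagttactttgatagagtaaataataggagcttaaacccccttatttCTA
MT-TQ: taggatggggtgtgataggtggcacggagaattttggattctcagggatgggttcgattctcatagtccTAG

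**Figure D2:**
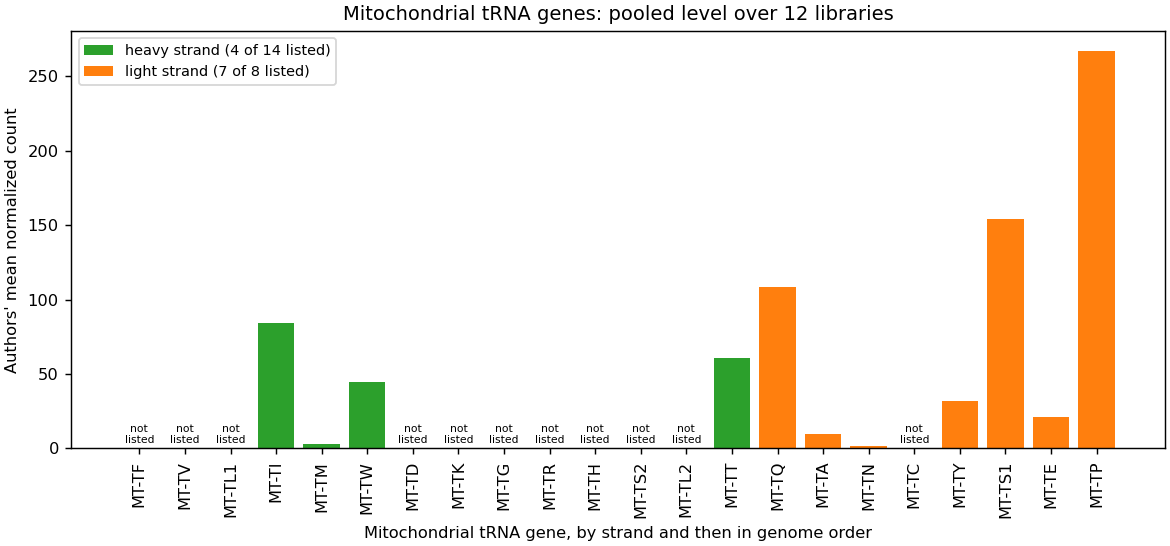
Authors' mean normalized count of the 22 mitochondrial tRNA genes, ordered by strand and then by position. Each bar is 1 gene pooled over 12 libraries. Light-strand bars reach 267 (MT-TP), heavy-strand bars reach 84.0 (MT-TI), and 11 genes are not listed.

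Each complex of oxidative phosphorylation that draws on both genomes had much more mitochondrial than nuclear mRNA per kilobase. In complex I, which takes electrons from NADH, the 6 heavy-strand genes had a median of 10857 and the 37 nuclear subunit genes a median of 102, a ratio of 107. The nuclear genes ran from NDUFA13 at 11.1 to NDUFA1 at 649, all below MT-ND3. In complex III, MT-CYB was 39.1 times the median of 349 over 9 nuclear genes, which ran from UQCRB at 51.0 to CYC1 at 766. In complex IV, the median of MT-CO1, MT-CO2 and MT-CO3 was 147 times the median of 273 over 11 nuclear genes, whose highest was COX6B1 at 994 and whose lowest was COX7B at 118.

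Complex V was the exception in that the ranges met, which rested on MT-ATP8 alone. Its 2 mitochondrial genes had a median of 8757 and its 16 nuclear genes a median of 237, a ratio of 36.9. The 16 include ATPIF1, which encodes an inhibitor of the ATP synthase and not a subunit. ATP5B, the catalytic beta subunit of the ATP synthase, was at 3338 per kilobase and thus above MT-ATP8 at 1421, while ATP5L was lowest at 22.4. MT-ATP6 was at 16092, above every nuclear gene of the complex. As given above, MT-ATP8 shares bases with MT-ATP6, and its gap to MT-ATP6 cannot be read as one of RNA amount. Over the 73 nuclear genes of the 4 complexes, the heavy-strand median was 82.4 times the nuclear median. Nuclear lengths are those of all annotated exons merged, in a later annotation release than that of the authors' counts. The ratio was 53.0 with the length of the longest transcript. Whether nuclear genes that overlap others lost reads in the authors' counting was not tested. These are ratios of RNA levels in a pool of depleted and control cells, and protein was not measured.

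**Figure D3:**
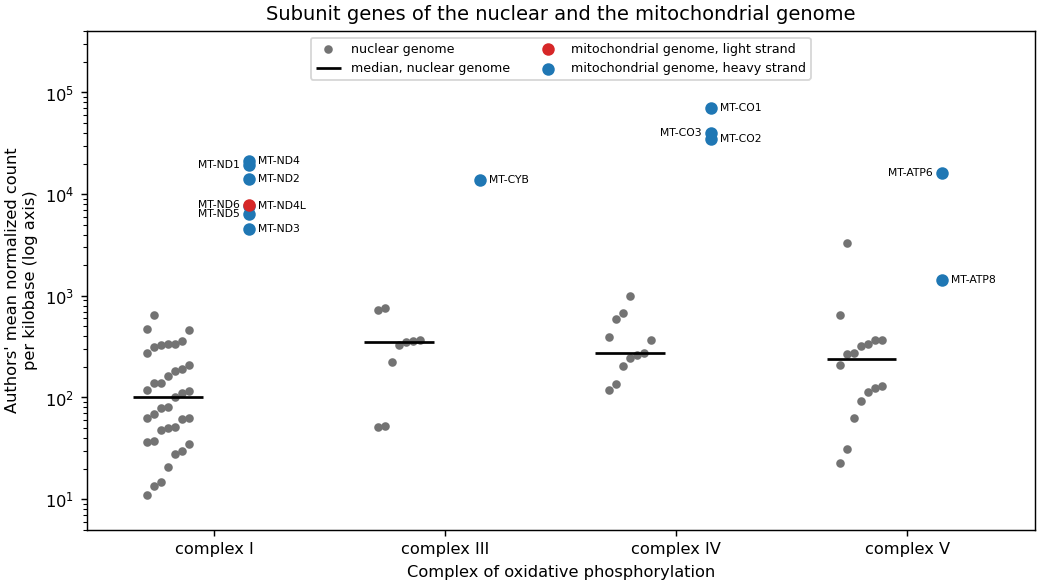
Authors' mean normalized count per kilobase (log axis) of subunit genes of complexes I, III, IV and V, with the inhibitor gene ATPIF1 placed in complex V. Grey points are nuclear genes with their median as a bar, blue and red points are mitochondrial genes of the heavy and light strand. Mitochondrial genes lie above all nuclear genes of their complex except in complex V, where ATP5B at 3338 lies above MT-ATP8 at 1421. MT-ATP8 shares bases with MT-ATP6, so its count need not give its RNA amount.

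All nuclear genes on 4 lists of factors that make, cut, keep or copy mitochondrial nucleic acid were listed. The 9 genes for mitochondrial transcription had a median of 79.9 per kilobase, from MTERFD2, of the termination factor family, at 37.3 to TFAM, which packages the mitochondrial genome and starts its transcription, at 269. The 11 genes for RNA processing had a median of 121, with ELAC2, which cuts the 3' ends of tRNAs, highest at 274. KIAA0391, the nuclease subunit of mitochondrial RNase P that cuts their 5' ends, was lowest at 2.18, with a mean of 15.2. Whether genes on these lists that overlap others lost reads in the authors' counting was not tested, so a low value need not mean little RNA. The 7 genes for RNA stability and decay ran from REXO2, an oligoribonuclease, at 84.9 to PNPT1, a polynucleotide phosphorylase, at 217 with a median of 139. The 6 genes for replication ran from POLG2, the accessory subunit of the mitochondrial polymerase, at 17.8 to MGME1, a nuclease for mitochondrial DNA, at 332 with a median of 108. These genes were below every heavy-strand mRNA, and 3 of the 4 medians were above 100 per kilobase. All these levels divide by annotated exons merged, and some ends depend on that length. With the longest transcript, LRPPRC of the stability list was at 659 against 252 for PNPT1. REXO2 rose to 285, and PDE12 was lowest of that list at 90.9. POLRMT at 319 was then above TFAM at 283, and MTERFD3 at 45.8 below MTERFD2 at 81.8. The ends of the processing and replication lists stayed the same.

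The nuclear copies were low, with 2 exceptions. Their means ran from 1.58 to 676 with a median of 10.4, against 65.8 over all genes, and 11 of the 24 were under 10. Of these 24, only MTATP6P1 and MTND2P28 were at 100 or more, and the next was MTND5P26 at 37.2. The table names 15 further copies, of MT-CO1, MT-CO2, MT-CO3, MT-ATP6 and MT-CYB, in other ways, mostly as clones, so the symbol rule did not take them. Copies of complex I genes made up 22 of the 24 members, or 22 of 39 copies when those 15 are counted. There were 6 each for MT-ND1 and MT-ND5, 4 each for MT-ND2 and MT-ND4 and 2 for MT-ND6. MT-ATP6 and MT-CYB had 1 copy each among the members. The highest member for each gene was MTND1P32 at 28.1, MTND2P28 at 316, MTND4P32 at 28.4, MTND5P26 at 37.2, MTND6P4 at 21.5, MTCYBP3 at 8.78 and MTATP6P1 at 676.

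The 24 copies lay at 11 loci, where copies under 100 kb apart were taken as 1 locus, and 7 loci held more than 1 copy. Of the copies, 17 lay wholly inside a protein-coding or long non-coding RNA gene, all of them in introns. Of these 17, 15 lay on the strand of that gene and 2 on the other. Other gene types and partial overlaps were not searched. The loci differed in how closely they resemble the present mitochondrial genome. Copies on chromosomes 1 (the locus at 564442) and 5 matched their mitochondrial gene at 93.0% to 99.1% of aligned bases, and the other 18 copies at 66.2% to 77.9%. Bases that did not align are left out of these values. Of the 24 copies, 16 had at least 80% of their length aligned, and the lowest share was 29.0% for MTND1P34. Copies outside the chromosome 1 locus had 0.00609% to 0.519% of the mean of their mitochondrial gene.

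**Figure D4:**
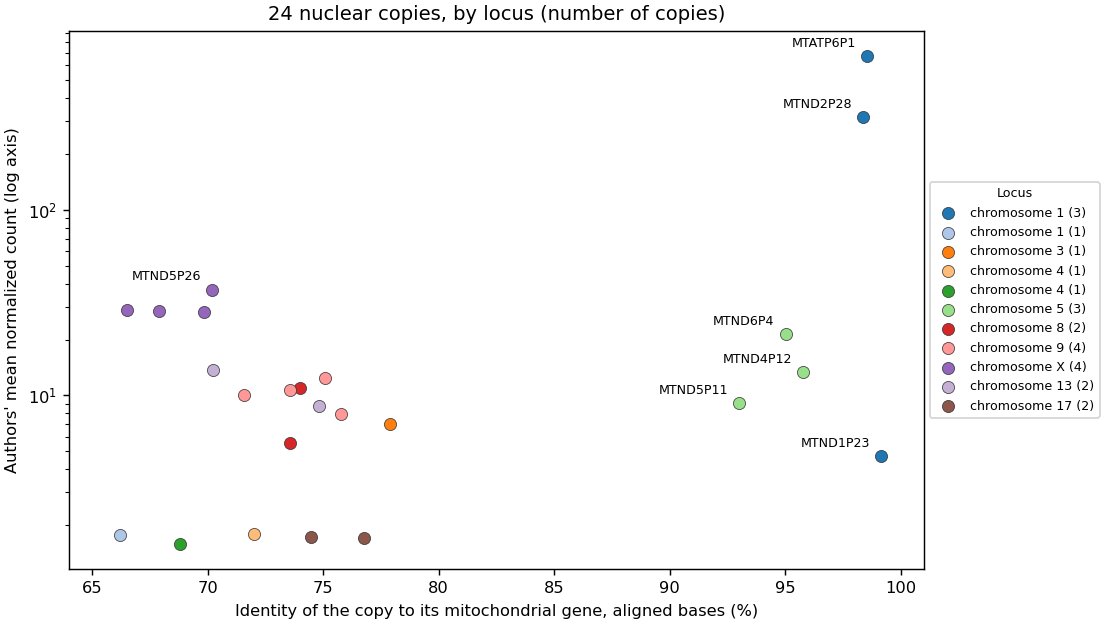
Identity of each of the 24 nuclear copies to its mitochondrial gene (percent of aligned bases) against the authors' mean normalized count (log axis), coloured by locus. MTATP6P1 at 676 and MTND2P28 at 316 stand apart at over 98% identity, while MTND1P23 of the same locus is at 4.74.

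The chromosome 1 locus held 79.2% of the summed mean of the 24 copies. It spans chr1:564442-570302 and matches 5845 bases of the mitochondrial genome, 35.3% of it, at 98.5% identity. MTATP6P1 (chr1:569076-569756) differs from MT-ATP6 at 10 of 681 bases and had a mean of 676, 6.17% of that of MT-ATP6. MTND2P28 (chr1:565020-566063) differs from MT-ND2 at 17 of 1042 aligned bases and had a mean of 316, 2.15% of that of MT-ND2. MTND1P23 (chr1:564442-564813), a short copy with 99.1% identity over 352 aligned bases, had a mean of 4.74, or 0.0256% of that of MT-ND1. Within this locus the means ran from 4.74 to 676, while identity spanned only 98.4% to 99.1%. With so narrow a span, and copies of 372 to 1044 bases, no relation of identity to the mean can be read here.

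The pairs below show how few bases tell these copies from their mitochondrial genes, in stretches of 90 bases with the differing bases in capitals. MTATP6P1 at chr1:569178-569267 and MT-ATP6 at chrM:8629-8718 differ at 4 bases, and MTND2P28 at chr1:565452-565541 and MT-ND2 at chrM:4902-4991 differ at 5. Both stretches are denser in differences than the whole copies, which differ at 10 of 681 and 17 of 1042 aligned bases. An old copy is set beside them: MTND5P26 at chrX:102060056-102060145 and MT-ND5 at chrM:13117-13206 differ at 30.
MTATP6P1: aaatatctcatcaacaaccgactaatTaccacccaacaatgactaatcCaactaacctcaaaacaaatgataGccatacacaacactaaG
MT-ATP6: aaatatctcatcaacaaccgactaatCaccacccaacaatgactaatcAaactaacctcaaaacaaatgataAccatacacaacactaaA
MTND2P28: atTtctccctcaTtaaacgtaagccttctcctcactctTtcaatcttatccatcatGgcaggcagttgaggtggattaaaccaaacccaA
MT-ND2: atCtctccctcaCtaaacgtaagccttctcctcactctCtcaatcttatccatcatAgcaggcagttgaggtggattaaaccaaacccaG
MTND5P26: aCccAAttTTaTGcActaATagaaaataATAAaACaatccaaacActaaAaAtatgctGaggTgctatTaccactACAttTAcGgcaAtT
MT-ND5: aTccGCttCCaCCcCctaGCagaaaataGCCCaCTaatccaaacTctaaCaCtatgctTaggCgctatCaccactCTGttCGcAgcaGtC

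Reads from a mitochondrial gene and a near-identical copy can be shared between them, so the identity of short stretches was counted. Of all stretches of 100 bases in MTND1P23, 34.8% occur letter for letter in the mitochondrial genome, and the share was 26.0% in MTND2P28 and 11.9% in MTATP6P1. The other 21 copies had 0 such stretches. At 150 bases, the read length given by the study, the share was 15.6% in MTND2P28, 4.48% in MTND1P23 and 0 in MTATP6P1. In the other direction, 6 of the 13 mRNA genes had stretches of 100 bases that occur in the nuclear genome. These were MT-CO1 with 27.9%, MT-ND2 with 26.1%, MT-ATP6 with 11.9%, MT-ND1 with 10.97%, MT-CO3 with 4.67% and MT-CO2 with 2.39%. Of the rRNAs, MT-RNR1 had 21.2% and MT-RNR2 0. The tRNA genes are shorter than 100 bases, so stretches of 50 were used for them. All such stretches occur in the nuclear genome for 6 listed tRNAs, MT-TQ, MT-TW, MT-TA, MT-TN, MT-TS1 and MT-TE, some for MT-TM and MT-TY, and 0 for MT-TI, MT-TT and MT-TP. The counts of tRNAs with such stretches are uncertain in the same way. The values of MTATP6P1, MTND2P28 and MTND1P23 are therefore uncertain as levels of RNA from chromosome 1, and the part that reads of mitochondrial origin have in them was not tested. Which mitochondrial sequence the authors aligned to is not given in the sources used here.

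Copies at the remaining loci were named by locus after their values were seen. On chromosome X (chrX:102040595-102062752), 4 of the members lie in introns of the long non-coding RNA LINC00630 on its strand, with means of 37.2 for MTND5P26, 28.9 for MTND2P2, 28.4 for MTND4P32 and 28.1 for MTND1P32. Per kilobase of annotated exons they spanned 21.2 to 30.6, and LINC00630 had a mean of 227. Some of these copies, such as MTND5P26, extend over more bases than their annotated exons, so their levels over the whole extent would be lower. With 5 further copies there that the rule did not take, at means of 3.54 to 24.4, the 9 spanned 11.03 to 32.9 per kilobase. On chromosome 9 (chr9:5091093-5110762), 4 of the members lie in introns of JAK2, a tyrosine kinase gene with a mean of 353, again on its strand. There MTND1P11 was at 12.4, MTND4P14 at 10.7, MTND6P5 at 10.1 and MTND5P14 at 7.96, or 6.28 to 19.7 per kilobase. The 4 further copies there had means of 4.81 to 14.9.

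The chromosome 5 locus (chr5:134259813-134263726) lies in introns of PCBD2 (mean 376) and held copies on both strands. MTND6P4, on the strand of PCBD2, was at 41.1 per kilobase with 95.0% identity. MTND4P12 and MTND5P11, on the other strand, were at 9.67 and 5.01 with 95.8% and 93.0% identity. The copy on the strand of the host gene was the highest of the 3. It also had the largest share of stretches of 50 bases found letter for letter in the mitochondrial genome. That share was 18.0% for MTND6P4, 4.76% for MTND5P11 and 3.46% for MTND4P12. On chromosome 13, MTND5P2 at 13.8 and MTCYBP3 at 8.78 lie in introns of DNAJC3 (mean 1013), on its strand. Whether the counts of intronic copies came from unspliced RNA of the host gene or from RNA of the copy cannot be told apart in this table. For the chromosome 5 copies, 0% of stretches of 100 or of 150 bases occur letter for letter in the mitochondrial genome. Whether shorter matching reads of mitochondrial RNA were counted there was not tested.

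The other 8 copies had means of 1.58 to 10.9. MTND2P32 at 10.9 and MTND1P6 at 5.58 lie in introns of a long non-coding RNA on chromosome 8. MTND5P15 on chromosome 3, not wholly inside a protein-coding or long non-coding RNA gene, was at 7.02. MTND4P9 at 1.79 and MTND5P5 at 1.58 lie at separate places on chromosome 4, the latter in an intron of BANK1. MTND1P34 at 1.77 lies in an intron of CYP4A22-AS1 on chromosome 1. MTND2P12 at 1.74 and MTND1P14 at 1.72, on chromosome 17, are also not wholly inside a gene of these types. The 5 copies under 2 were close to the lowest mean in the table, 1.52.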

How the data were processed

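Per the labels and the methods of the study, DNase-treated total RNA was made into stranded libraries after rRNA removal. The authors used STAR for alignment (hg19), HTSeq for gene counts and DESeq2 for normalization and their comparison, whose model held a term for sequencing batch. The signal used here is the deposited mean normalized count over all 12 libraries, the only value column used. The other 5 columns hold the fold change, its error, a statistic and p-values of the authors' own comparison, and were not used. With 0 columns per library, the comparison planned for such values was not run.

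Gene IDs were matched to GRCh37 (GENCODE release lifted to that build, 21798 or 96.6%). This release, which gave the gene lengths, is later than the GENCODE release on which the authors counted reads. How far that changes levels per kilobase of nuclear genes was not tested. Copies were aligned to their mitochondrial gene with blastn 2.17.0, and windows of 100 bases were searched letter for letter on both strands. Functions were tested on simulated data. Python 3.11.15, pandas 2.3.3, numpy 2.4.6, pysam 0.24.0 and matplotlib 3.10.9 were used. Members, lists and alternatives were chosen with earlier results of these data known. Named were all listed mitochondrial genes, the highest copy of each gene and copies at 100 or more, the highest and lowest factor per role, and YTHDC1.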

Additional observations from a re-analysis of the deposited data

How the results depend on the processing

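No paired analysis was possible because the values are pooled over the libraries, and for the same reason no library could be left out. With no replicate spread, a value was taken as moved where it changed by over 1.5 times. Of 28 alternative settings of 15 results, 17 stayed within that. Without genes that overlap another, the heavy-strand spread was 15.4-fold. Without division by length, MT-ND6 was at 0.273 and MT-RNR2 at 0.0251 of the heavy-strand median. The median tRNA was 659 per kilobase, and the mean tRNA count 71.4. At a mean of 10 or more, 13 copies were left, with a median of 21.5. With the longest transcript of nuclear genes, heavy-strand mRNAs were 53.0 times their median. Window lengths were varied after seeing the data: at 50 bases 11 mRNAs and 6 copies shared windows, and at 150 bases 3 mRNAs and 2 copies did. The pooled means limit all results to levels, and their precision is unknown.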

Other observations

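The table held 15 further copies of mitochondrial genes under other names, outside the rule. In the chromosome 1 locus, the copy of MT-CO1 (MTCO1P12) had a mean normalized count of 334, those of MT-CO2 (MTCO2P12) and MT-CO3 (MTCO3P12) 15.8 and 13.3. That is 0.311%, 0.0669% and 0.0422% of the mean of the mitochondrial gene, and all 3 match it at 98.0% to 98.6% of aligned bases. Of their stretches of 100 bases, 27.8%, 2.40% and 6.70% occur letter for letter in the mitochondrial genome, and of those of 150 bases 14.5%, 0 and 0. These values are therefore uncertain as levels of RNA from chromosome 1. The other 12 had means of 2.30 to 24.4, the highest being MTCYBP32 at 24.4 in the chromosome X locus. These genes were found by position after the values were seen, and no test was made.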
